A study of Mus musculus with 3 samples.

Results

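The insulin-like growth factor (IGF) genes described here are the ligands *Igf1* and *Igf2*, the receptors *Igf1r* and *Igf2r*, and the binding proteins *Igfbp2*, *Igfbp3*, *Igfbp4*, *Igfbp5*, *Igfbp6* and *Igfbp7*. They were chosen by symbol, and all 10 were found once each among the 33696 features of the count tables. The cells came from larynges of mice of genotype Lrig1CreERT2/+; ROSA26CAG-LSL-tdTomato/+. Cre made from the *Lrig1* locus turned the tdTomato reporter on after tamoxifen, given on consecutive days, and every cell carried the CreERT2 allele at *Lrig1*. Cells positive for tdTomato were sorted 24 h after recombination. Each of 3 libraries pooled 10 larynges, from 5 males and 5 females, so single animals cannot be told apart and the library was the replicate (n = 3). All libraries shared the same genotype, treatment and time, and the comparisons below are between groups of cells within them. The age of the mice is not given in the sources used here.

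IGF1 and IGF2 are secreted growth factors that act mainly through the receptor tyrosine kinase IGF1R. IGF2R takes up IGF2 and delivers it to lysosomes. The IGF binding proteins hold the ligands outside the cell and can prolong, block or localise their action, and proteases such as PAPPA release the ligand by cutting the binding protein. IGFBP7 binds IGFs weakly and is best known as a protein of vessel walls and their matrix.

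After limits on genes, unique molecular identifiers (UMIs) and mitochondrial share, 49393 of 60530 barcodes were kept, with a median of 10761 to 14331 UMIs per cell across libraries. Each cell was placed in a class by the UMIs of fixed marker genes, none of which is a member of the IGF group. A class needed at least 3 UMIs from at least 2 of its marker genes and a sum at least 3 times that of any other class. This gave 28775 epithelial cells, 4877 fibroblasts, 1836 satellite cells (the muscle stem cells), 629 endothelial cells, 261 immune cells and 151 mural cells (pericytes and smooth muscle of vessels), and left 12846 cells without a class. Names of classes and groups stand for these marker genes. Endothelial cells were unevenly spread, with 547, 32 and 50 in libraries 1, 2 and 3, and mural cells with 88, 13 and 50. In every library, 6 lists of marker genes that the gates did not use were each highest in their own class. Libraries shared between 24 and 119 kept barcodes, at most 0.890% of the smaller library.

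*Igfbp4* and *Igfbp6*, together with the ligand *Igf1*, were higher in fibroblasts than in each other class tested, *Igfbp7* was higher in endothelial cells, and *Igf1r* and *Igf2r* were higher in satellite cells. No member was called for epithelial or immune cells. Over all genes, 4.80% were called for fibroblasts, 4.46% for endothelial, 3.84% for satellite, 7.62% for epithelial and 7.80% for immune cells. With mural cells in the fit, the calls of *Igfbp4* and *Igfbp7* were lost. Without replicate 1, those of *Igf1*, *Igfbp4*, *Igfbp6* and *Igfbp7* were lost, and fewer genes were called for every class. *Igfbp2*, *Igfbp3* and *Igfbp5* were not called for any class, and each differed between groups of cells within a class. *Igfbp2* was called between basal groups, where 15.0% of genes were, and its call was lost without replicate 1. *Igfbp3* and *Igfbp5* were called between fibroblast groups, where 2.49% of genes were. Both of these calls were lost without replicate 1 or without replicate 2. *Igfbp5* was also called for neuroendocrine cells, where 5.69% of genes were. A gene was called for a class when it was higher in every pairwise contrast at an adjusted p under 0.05 (edgeR's quasi-likelihood test on summed counts, Benjamini-Hochberg over 15910 genes). The 5 classes with at least 20 cells in each library entered that fit, so mural cells did not. Counts and shares of called genes leave out genes that reached the level of the filter on low counts (2 CPM here) in fewer than 3 sums outside the group named, since such a gene had to differ to be tested.

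**Figure D1:**
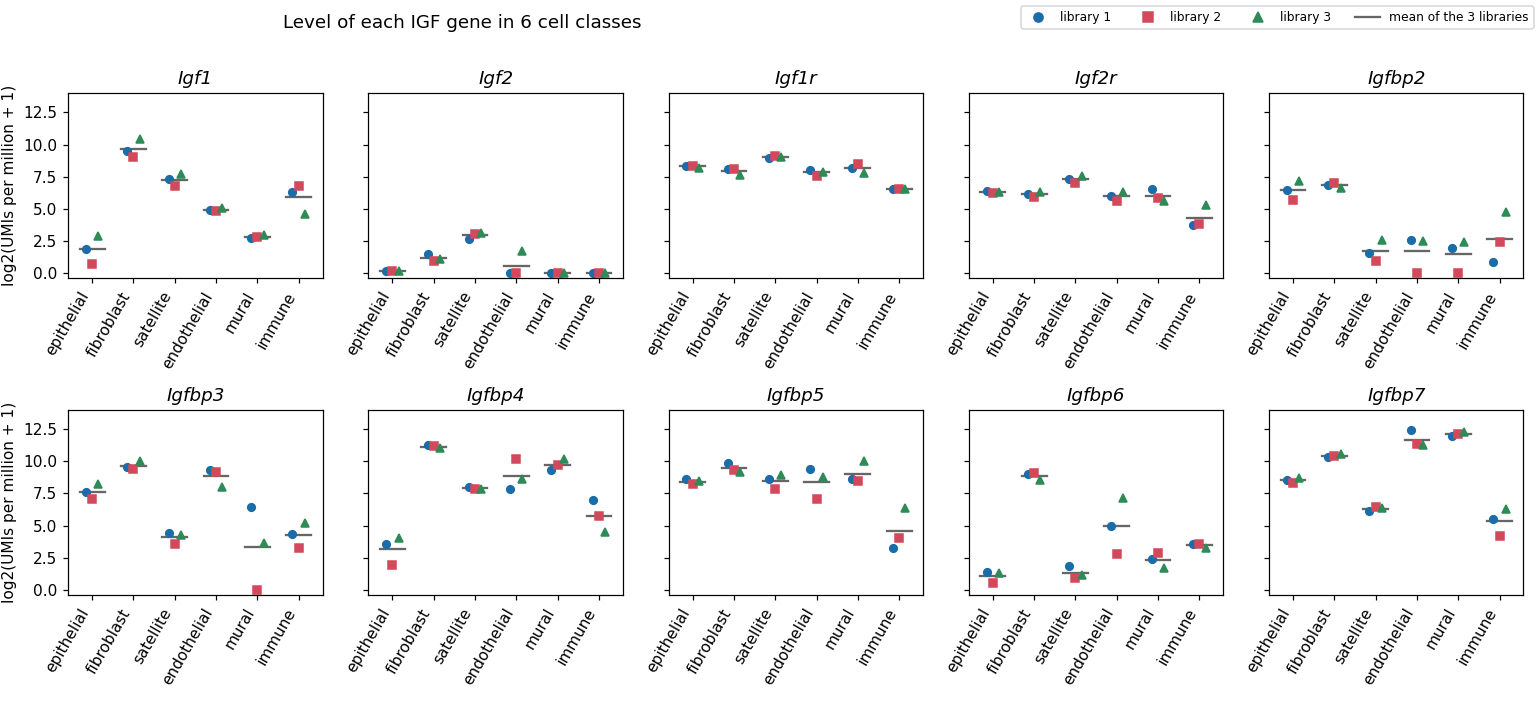
Level of each gene in 6 cell classes, as log2 of CPM plus 1 on the vertical axis. Points are the 3 libraries and bars their mean. *Igf1*, *Igfbp4* and *Igfbp6* are highest in fibroblasts, and *Igfbp7* is highest in endothelial and mural cells.

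Levels are given as CPM, the UMIs of a gene per 1000000 UMIs of the summed cells. A 3' UMI counts a molecule once, and levels were compared between cell groups for the same gene, not between genes. *Igf1*, the main circulating and local IGF ligand, stood at 720, 508 and 1361 CPM in the fibroblasts of libraries 1, 2 and 3. In satellite cells it was 158, 107 and 204 CPM, and in immune cells 79.1, 110 and 23.4 CPM. The fibroblast sums did not overlap with those of any other class. Fibroblasts exceeded satellite cells, the next class, by 2.53 ± 0.59 (log2, SE, n = 3, adjusted p = 0.00325, edgeR). The *Igf1* level in epithelial cells, 2.78, 0.696 and 6.55 CPM, was highest in the library whose fibroblasts were highest, and the part of free RNA in it was not tested. Of all *Igf1* UMIs in the 6 classes, 90.0% ± 4.8 (SD, n = 3) were counted in fibroblasts, which made up 7.68 to 23.0% of those cells.

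*Igf2*, the ligand that is imprinted and mostly fetal, was near the detection limit. Satellite cells held 17, 23 and 48 *Igf2* UMIs, or 5.51, 7.33 and 7.72 CPM. Fibroblasts held 46, 5 and 25 *Igf2* UMIs in larger sums, or 1.78, 0.989 and 1.16 CPM. No other class reached 3 CPM in any library, and mural and immune cells held 0 UMIs. These sums were small: 3 UMIs would be 4.29, 18.6 and 6.75 CPM in mural cells and 1.33, 6.46 and 6.39 CPM in immune cells. *Igf2* passed the filter on low counts only through its satellite sums, so its levels are a description and its call was not counted. A UMI of *Igf2* was found in 4.62% ± 1.10 of satellite cells, 1.41% ± 0.43 of fibroblasts and 0.196% ± 0.039 of epithelial cells (SD, n = 3). Median depths in these classes were 6390.5, 10155 and 15048 UMIs.

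The receptors were detected in every class. *Igf1r*, the signalling receptor, stood at 506, 557 and 534 CPM in satellite cells and at 319, 329 and 292 CPM in epithelial cells. Every satellite sum was above every sum of the other classes. Satellite cells exceeded epithelial cells by 0.70 ± 0.16 (log2, SE, adjusted p = 0.00191, edgeR), and immune cells were lowest, at 91.7 to 94.7 CPM. *Igf2r*, the lysosomal receptor for IGF2, was 159, 126 and 192 CPM in satellite cells against 82.4, 74.4 and 80.2 CPM in epithelial cells, a difference of 0.94 ± 0.22 (log2, SE, adjusted p = 0.00235, edgeR). For *Igf1r*, fibroblasts and endothelial cells were not called different (adjusted p = 0.742, edgeR).

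*Igfbp4*, which is cut by PAPPA to release IGF, stood at 2390, 2306 and 2055 CPM in fibroblasts and at 2.93 to 15.1 CPM in epithelial cells. In endothelial cells it was 227, 1177 and 395 CPM, where the high value came from 32 cells, and in mural cells, the next class by mean level, 650, 849 and 1127 CPM. Fibroblasts exceeded endothelial cells by 1.97 ± 0.62 (log2, SE, adjusted p = 0.0221, edgeR). This call of *Igfbp4* was lost with mural cells in the fit (adjusted p = 0.105), with loose gates (0.106) and without replicate 1 (0.191) or replicate 3 (0.0917, edgeR). *Igfbp6*, which prefers IGF2, was 508, 552 and 362 CPM in fibroblasts, and outside fibroblasts it exceeded 31 CPM only in the 50 endothelial cells of library 3, at 142 CPM from 3 cells. Fibroblasts exceeded endothelial cells by 3.15 ± 0.57 for *Igfbp6* (log2, SE, adjusted p = 0.000451, edgeR). Of all *Igfbp6* UMIs in the 6 classes, 96.7% ± 1.9 (SD, n = 3) were counted in fibroblasts.

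*Igfbp7* stood at 5498, 2567 and 2443 CPM in endothelial cells, at 1269, 1351 and 1511 CPM in fibroblasts and at 3957, 4339 and 5008 CPM in mural cells. Endothelial cells exceeded fibroblasts by 1.35 ± 0.35 (log2, SE, adjusted p = 0.00729, edgeR). The endothelial and mural sums overlapped. *Igfbp7* was also found in 80.8% ± 4.8 of epithelial cells (SD, n = 3), and epithelial cells held 38.0%, 75.5% and 74.7% of its UMIs in libraries 1, 2 and 3. In library 1, fibroblasts held 32.1% and endothelial cells 26.9% of them. Satellite and immune cells were lowest, at 17.2 to 86.3 CPM.

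*Igfbp3*, the main carrier of circulating IGF, was 750, 679 and 1045 CPM in fibroblasts and 638, 564 and 257 CPM in endothelial cells. These differed by 0.76 ± 0.37 (log2, SE, adjusted p = 0.128, edgeR) and were not called. Fibroblasts were higher in each library, and this fit did not pair the sums of a library. *Igfbp2* was shared by fibroblasts, at 112, 130 and 98.7 CPM, and epithelial cells, at 87.3, 49.7 and 147 CPM, whose ranges overlapped (difference 0.26 ± 0.42 on the log2 scale, SE, adjusted p = 0.627, edgeR). Its direction was not stable: without replicate 2 the difference was -0.14, and without replicate 3 it was 0.79 ± 0.28 and was called for fibroblasts (adjusted p = 0.0388, edgeR). No other class had more than 26 CPM of *Igfbp2*. *Igfbp5* was spread over 5 of the 6 classes, from 132 to 1008 CPM, and was low in immune cells, at 8.84 to 83.1 CPM.

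Leaving out *Igf2*, 3 members were called for fibroblasts, 2 for satellite cells, 1 for endothelial cells and 0 for epithelial and immune cells. The shares over all genes were 4.80%, 3.84% and 4.46% for these classes, 7.62% for epithelial cells and 7.80% for immune cells. With the genes that the filter rule leaves out they were 6.66%, 4.68%, 5.42%, 9.52% and 10.7%. Without replicate 1, none of *Igf1*, *Igfbp4*, *Igfbp6* and *Igfbp7* kept its call (adjusted p = 0.0683, 0.191, 0.0508 and 0.255, edgeR). Fewer genes were called for every class in that fit, with the counts given below. In libraries 2 and 3, *Igf1* was 508 and 1361 CPM in fibroblasts against 107 and 204 CPM in satellite cells. Endothelial *Igfbp7* was 2567 and 2443 CPM there against 1351 and 1511 CPM in fibroblasts, and in library 1 it was 5498 against 1269 CPM. With mural cells added to the fit, *Igfbp4* was no longer called for fibroblasts (fibroblasts above mural cells by 1.37 ± 0.59, adjusted p = 0.105) and *Igfbp7* was no longer called for endothelial cells (mural above endothelial cells by 0.28 ± 0.33, adjusted p = 0.616, edgeR). In that fit 3.12% of genes were called for mural cells, and 0 members.

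**Figure D2:**
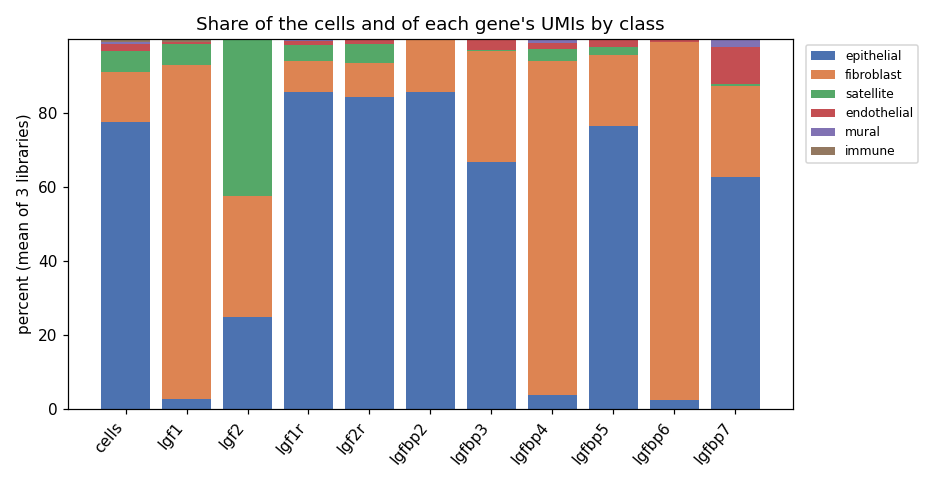
Share of the cells in the 6 classes (left bar) and of the UMIs of each gene by class, in percent, as the mean of 3 libraries. *Igf1*, *Igfbp4* and *Igfbp6* were counted mostly in fibroblasts, at 90.0%, 90.2% and 96.7% of their UMIs, while 85.6% of *Igf1r* UMIs were counted in epithelial cells, which were 77.6% of the cells. Epithelial cells also had the highest median depth (15048 UMIs, against 10155 in fibroblasts), so shares of UMIs and of cells are not on the same scale.

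Within fibroblasts, 3684 cells with a UMI of *Hhip*, *Wnt16* or *Col23a1*, called laryngeal fibroblasts here, were compared with the 1193 others. *Igfbp2* stood at 148, 159 and 116 CPM in laryngeal fibroblasts and at 12.4, 1.06 and 26.1 CPM in the others. Only 2 of the 3 sums of the others reached the level of the filter (1.82 CPM), so these levels of *Igfbp2* are a description and its call was not counted. *Igfbp3* was higher in laryngeal fibroblasts, at 906, 749 and 1170 CPM against 317, 375 and 519 CPM, a log2 difference of 1.20 ± 0.22 (SE, adjusted p = 0.0364, edgeR). The sums of *Igfbp3* did not overlap between the groups.

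*Igfbp5* and *Igfbp6* were lower in laryngeal fibroblasts. *Igfbp5* was 598, 548 and 379 CPM in laryngeal fibroblasts and 1825, 988 and 1439 CPM in the others, a log2 difference of -1.50 ± 0.28 (SE, adjusted p = 0.0367, edgeR). *Igfbp6* was 401, 457 and 281 CPM against 802, 965 and 705 CPM, a log2 difference of -1.14 ± 0.23 (SE, adjusted p = 0.0499, edgeR), which RLE scaling moved past the threshold (adjusted p = 0.0509). *Igfbp4* and *Igf1* were not called (log2 differences of 0.39 ± 0.24 and 0.10 ± 0.52, SE). Leaving out *Igfbp2*, 3 of 8 members were called, where 2.49% of 12225 genes were. With the library as a block, used because a pool of larynges gave both sums, 4 members and 9.15% of genes were called, and *Igfbp7* joined at 0.37 ± 0.07 (log2, SE, adjusted p = 0.0215, edgeR). Without replicate 1 or without replicate 2, 0 members were called (adjusted p for *Igfbp5* of 0.310 and 0.152, edgeR). Most calls over all genes were lost in these fits too, with the counts given below.

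*Igfbp2* and *Igfbp5* lie next to each other on chromosome 1, at 72863606 to 72891634 on the plus strand and 72897091 to 72914043 on the minus strand (GRCm39, GENCODE M39). The 5456 bases between them hold 0 protein-coding genes. *Igfbp3* lies on chromosome 11 at 7156086 to 7164179 on the minus strand, and *Igfbp6* on chromosome 15 at 102052697 to 102057953 on the plus strand. The 200 bases upstream of the canonical start are shown for the 3 members counted as called in this split without the block. Their windows overlap no annotated exon. They were read from GRCm39 and are written 5' to 3' on the strand of the gene, at chr11:7164180-7164379 for *Igfbp3*, chr1:72914044-72914243 for *Igfbp5* and chr15:102052497-102052696 for *Igfbp6*. Capitals mark matches, on either strand, to a TATA box (TATAAA), a GC box (GGGCGG), an AP-1 motif (TGANTCA) or an E box (CANNTG).
Igfbp3: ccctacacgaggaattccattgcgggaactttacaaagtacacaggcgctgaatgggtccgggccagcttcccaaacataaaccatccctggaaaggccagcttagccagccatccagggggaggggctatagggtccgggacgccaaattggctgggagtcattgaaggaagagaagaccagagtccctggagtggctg
Igfbp5: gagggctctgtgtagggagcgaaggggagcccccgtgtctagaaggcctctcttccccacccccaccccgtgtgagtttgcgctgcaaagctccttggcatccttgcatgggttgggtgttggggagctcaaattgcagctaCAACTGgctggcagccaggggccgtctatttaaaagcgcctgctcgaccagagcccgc
Igfbp6: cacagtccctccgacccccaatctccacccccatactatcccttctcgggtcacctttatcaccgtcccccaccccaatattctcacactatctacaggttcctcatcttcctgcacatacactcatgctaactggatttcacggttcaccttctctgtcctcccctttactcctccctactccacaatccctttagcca
A single E box in *Igfbp5* was the only match in these windows. Over 21757 protein-coding genes, 9.57% of such windows held the TATA box, 34.8% the GC box, 4.94% the AP-1 motif and 56.1% the E box.

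**Figure D3:**
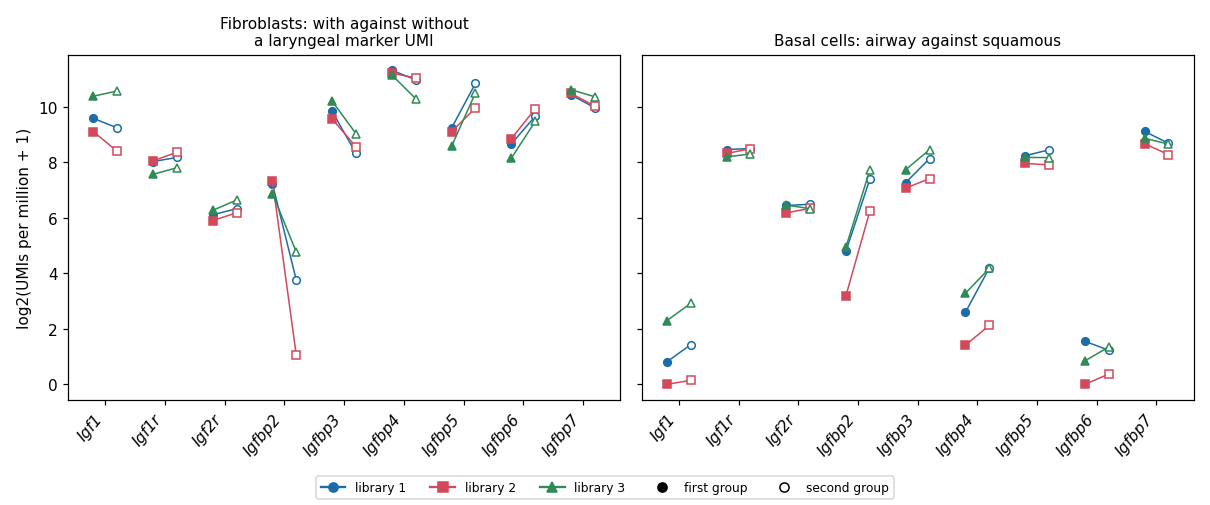
Levels of 9 members in pairs of groups, as log2 of CPM plus 1, with filled points for the group named first and open points for the group named second in each title, joined within a library. On the left *Igfbp2* and *Igfbp3* fall, and *Igfbp5* and *Igfbp6* rise, from laryngeal to other fibroblasts in all 3 libraries. The levels of *Igfbp2* on the left are a description, and its call there was not counted. On the right *Igfbp2* is higher in squamous than in airway basal cells in all 3 libraries.

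Fibroblasts with and without a UMI of *Igfbp2* did not exclude *Igfbp6*. A UMI of *Igfbp6* was found in 66.4%, 64.1% and 53.3% of fibroblasts with *Igfbp2* and in 58.9%, 55.6% and 48.1% of those without. Median depths were 10534, 12221.5 and 10379.5 UMIs with *Igfbp2* and 10734, 10873 and 9225 without.

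Among epithelial cells, airway basal cells (at least 1 UMI of *Nkx2-1*, none of *Tmprss11a*) were compared with squamous basal cells (the reverse), 3372 against 10921 cells. *Igfbp2* stood at 26.8, 8.16 and 29.8 CPM in airway basal cells and at 167, 74.5 and 211 CPM in squamous basal cells, with no overlap, and the log2 difference was -2.78 ± 0.50 (SE, adjusted p = 0.0104, edgeR). Suprabasal cells, the next layer of the squamous epithelium, had 225, 240 and 268 CPM, and secretory and gland cells at most 13.5 CPM. *Igf1* and *Igfbp6* reached the level of the filter in 2 sums of each group and are left out of the counts. *Igfbp2* was the 1 of the 7 other members called, where 15.0% of 14370 genes were, so the members' share was no larger than that of all genes. With the library as a block, 4 of these members and 39.7% of genes were called. *Igfbp3* and *Igfbp4* were then lower in airway basal cells by log2 differences of -0.67 ± 0.09 and -1.27 ± 0.17, and *Igfbp7* was higher by 0.33 ± 0.05 (SE, adjusted p = 0.000819, 0.000848 and 0.00216, edgeR). The levels of *Igf1* and *Igfbp4* were at most 6.55 and 17.2 CPM in these groups, and the part of free RNA in them was not tested. Without replicate 1 the call of *Igfbp2* was lost at nearly the same size (-2.90 ± 0.75, adjusted p = 0.168, edgeR).

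*Igfbp5* was highest in neuroendocrine cells, the rare sensory and secretory cells of airway epithelium. Its level was 3225, 2939 and 1873 CPM in 60, 29 and 20 neuroendocrine cells, 768, 638 and 786 CPM in ciliated cells, and at most 564 CPM in airway basal, squamous basal, suprabasal, secretory and gland cells. In a fit of 7 epithelial groups, chosen after the data were seen, neuroendocrine cells exceeded ciliated cells by 1.48 ± 0.21 (log2, SE, adjusted p = 6.53e-06, edgeR). *Igfbp5* was the only member called for any of the 7 groups, where the share of genes called was 0.583% for airway basal, 0.139% for squamous basal, 5.99% for suprabasal, 0.0189% for secretory, 2.83% for gland, 11.3% for ciliated and 5.69% for neuroendocrine cells. Its UMI was found in 96.1% ± 0.9 of neuroendocrine cells (SD, n = 3) and, expected after thinning each cell to 2000 UMIs, in 84.9%. *Igfbp7* was lower in neuroendocrine, gland, ciliated and suprabasal cells than in airway basal cells, by 3.86 ± 0.39, 2.99 ± 0.33, 2.66 ± 0.32 and 1.72 ± 0.32 (log2, SE, adjusted p = 1.16e-07, 8.2e-07, 7.44e-07 and 0.000233, edgeR). Thyroid-like epithelial cells, 95 in all and outside the fit, held *Igf1* at 78.6, 62.4 and 22.2 CPM.

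**Figure D4:**
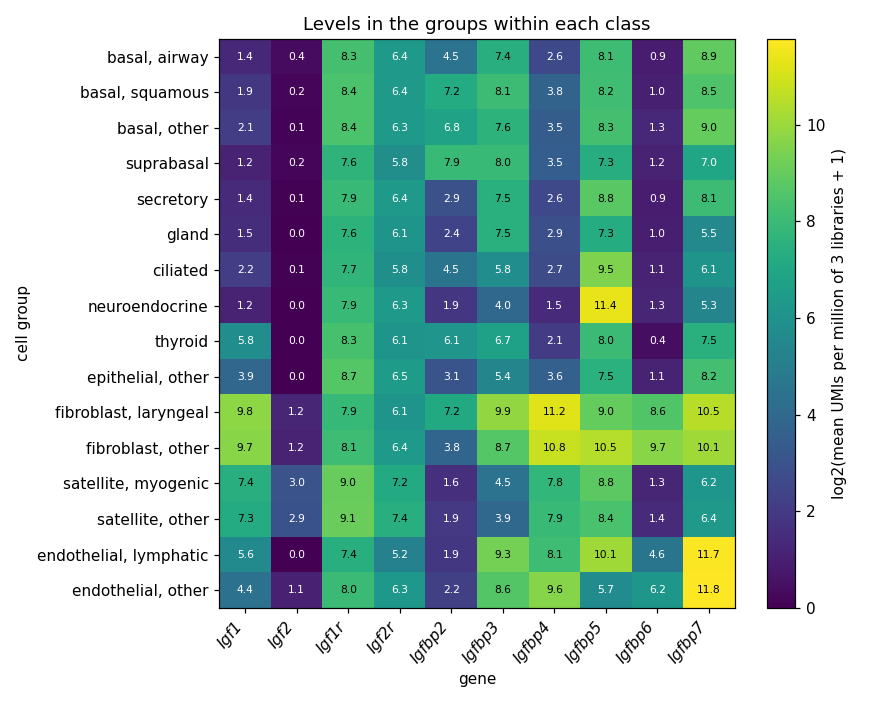
Levels of the 10 members in 16 groups within the classes, as log2 of the mean CPM of 3 libraries plus 1, in each cell and as colour. *Igfbp5* is highest in neuroendocrine cells, and *Igfbp2* is highest in suprabasal cells.

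In endothelial cells, those with at least 2 UMIs of the lymphatic genes *Prox1*, *Lyve1* or *Flt4* (176, 10 and 17 cells) held *Igfbp5* at 1638, 311 and 1366 CPM. The other endothelial cells (371, 22 and 33 cells) held it at 100, 19.6 and 33.4 CPM, below the lymphatic group in each library. Too few cells were present in 2 libraries for a test by the 20-cell rule. *Igfbp7* overlapped between the groups, at 1335 to 4855 CPM in lymphatic and 1698 to 5896 CPM in other endothelial cells.

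Satellite cells with a UMI of the muscle commitment genes *Myod1* or *Myog* (522 cells) were compared with the 1314 others. No member and no gene was called (edgeR, 0% of 11057 genes, 338 at an unadjusted p under 0.05, 3 by DESeq2), and with the block 0.768% of genes and 0 of 8 members were. *Igf1r* differed by -0.03 ± 0.15, *Igf1* by 0.15 ± 0.23 and *Igfbp5* by 0.47 ± 0.39 (log2, SE).

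The study set cells with *Lrig1* UMIs against cells without, and the members were compared in the same way within a class. Without the block, 0 genes were called in epithelial cells (0% of 18263, 733 at an unadjusted p under 0.05, 68 by DESeq2) and in fibroblasts (0% of 14672, 458 at an unadjusted p under 0.05, 3 by DESeq2) by edgeR. With the block, 12.0% of genes and 2 of 9 members were called in epithelial cells. *Igfbp2* was lower in cells with *Lrig1* by a log2 difference of -0.85 ± 0.07 (SE, adjusted p = 0.00647, edgeR), at 72.6, 42.5 and 110 CPM against 115, 69.2 and 226 CPM. *Igfbp7* differed by -0.19 ± 0.03 (SE, adjusted p = 0.0233, edgeR), and without the block its sign turned, to 0.047, when cells above 20000 UMIs were left out. In fibroblasts 1.36% of genes and 3 of 9 members were called with the block, leaving out *Igf2*. *Igf1* was higher in fibroblasts with *Lrig1*, at 846, 599 and 1499 CPM against 656, 456 and 1251 CPM (log2 difference 0.31 ± 0.05, SE, adjusted p = 0.0211, edgeR), while *Igfbp5* and *Igfbp6* were lower by -0.66 ± 0.12 and -0.45 ± 0.08 (SE, adjusted p = 0.0474 and 0.0314, edgeR). Epithelial cells with *Lrig1* held a median of 17937, 20594 and 17103.5 UMIs and those without 9814, 13627 and 8954.5, and fibroblasts 13082, 12911 and 11955 against 9733.5, 10531.5 and 8118. The share of cells with *Lrig1* also differed between epithelial groups. It was 63.9 to 74.6% in squamous basal, 56.1 to 63.9% in airway basal and 58.8 to 63.9% in secretory cells. In suprabasal, gland and ciliated cells it was 36.2 to 57.6%, 39.5 to 41.5% and 40.1 to 54.3%. The arms therefore held different mixes of groups that differ in *Igfbp2*. The share was 28.9, 32.2 and 36.9% in laryngeal and 21.3, 33.3 and 30.3% in other fibroblasts, groups that differ in *Igfbp5* and *Igfbp6*. The part of depth and of these mixes in these differences was not tested.

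Other genes of the IGF pathway were read from a list of 20 genes, of which 15 could be tested between classes. *Pappa2*, called for fibroblasts, passed the filter only through its fibroblast sums and is left out of the counts. Of the others, 3 were called for fibroblasts, 3 for satellite cells, 1 for endothelial cells and 0 for epithelial and immune cells, where 4.80%, 3.84%, 4.46%, 7.62% and 7.80% of all genes were. *Pappa*, the protease of IGFBP4, stood at 269, 321 and 261 CPM in fibroblasts, and exceeded endothelial cells, the nearest class, by 4.65 ± 0.49 (log2, SE, adjusted p = 2.89e-06, edgeR). *Stc2*, which inhibits PAPPA, and the protease *Htra1* were the other two, and *Pappa2*, a relative of *Pappa*, stood at 58.0, 47.1 and 76.7 CPM in fibroblasts. In satellite cells the 3 were *H19*, the imprinted RNA beside *Igf2*, at 119, 149 and 130 CPM, the adaptor *Grb10* and the insulin receptor substrate *Irs1*. *Insr*, the insulin receptor, was called for endothelial cells, at 635, 934 and 217 CPM. In the epithelial groups *Pappa* was called for neuroendocrine cells and *Grb14* for ciliated cells, where 5.69% and 11.3% of all genes were. *Insrr* and *Igfals* in neuroendocrine cells and *Stc1* and *Stc2* in gland cells passed the filter only through those groups, and *Insrr* stood at 88.7, 68.7 and 53.3 CPM in neuroendocrine cells. Between airway and squamous basal cells 2 list genes were higher (*Irs1* and *Grb14*) and 2 lower (*Htra3* and *Htra1*) of 10 counted, with a list median log2 difference of 0.39 against -0.01 over all genes. With the block 6 were higher and 2 lower, where 15.0% and 39.7% of all genes were called without and with the block. In the fibroblast split 0 of 13 were called, where 2.49% of all genes were, and with the block (9.15% of all genes) *Pappa2* and *Pappa* were higher in laryngeal fibroblasts by 1.63 ± 0.17 and 1.18 ± 0.14 and *Grb10* was lower by -0.37 ± 0.09 (log2, SE, adjusted p = 0.00139, 0.00234 and 0.0479, edgeR). In the *Lrig1* split of epithelial cells 0 of 13 were called, and with the block 1 was higher and 3 were lower, where 12.0% of all genes were called.

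The genes whose pattern was most like that of a member were taken from 15138 genes by Pearson correlation of log2(CPM + 1) over 45 sums of 15 cell groups, which share libraries and depth. For *Igf1* they were *Colec12*, *Lgals1* and *Rcn3* (r = 0.958, 0.948 and 0.941). For *Igfbp4* they were *Rcn3*, *Gypc* and *Sgip1* (r = 0.954, 0.949 and 0.945), and for *Igfbp6* *C4b*, *Scube1* and *Mmp16* (r = 0.934, 0.927 and 0.922). For *Igf2r* the closest was *Airn* (r = 0.941), an RNA antisense to *Igf2r*, and whether the counting used strand is not given in the sources used here. It was followed by *Rnf217* and *Nedd4*. *Igfbp7* was closest to *Gask1b*, *Il1r1* and *Dlc1* (r = 0.901, 0.894 and 0.858), and *Igfbp5* to *Khdrbs3*, *Hoxb3* and *Pomgnt2* (r = 0.875, 0.837 and 0.831). *Igfbp2* was closest to *Aknad1*, *Duox1* and *Lgals7* (r = 0.885, 0.834 and 0.801), and *Igfbp3* to *Foxc1*, *Itga2b* and *Il1r1* (r = 0.834, 0.811 and 0.808). *Igf1r* was closest to *Cecr2*, *Rnf217* and *2610307P16Rik*, and *Igf2*, at its low counts, to *Mycn*, *Lrrn1* and *Il12a*.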

How the data were processed

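Single cells were profiled with 10x GEM-X 3' v4 chemistry in 3 libraries, which the authors aligned to GRCm39 (mm39) and counted with Cell Ranger 8.0.1, per the labels. The deposited values are raw UMI counts per gene and barcode. Libraries 1, 2 and 3 held 211727921, 147898790 and 413632222 UMIs.

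Kept barcodes had 500 to 8000 genes, a total of 1000 to 40000 UMIs and a mitochondrial share of 8% or less. No doublet caller was run. Cells in which no class sum was at least 3 times the next were left without a class, and doublets may remain in the classes. Counts were summed per library and cell group. The sums were fitted by edgeR 4.0.16 under R 4.3.3, with TMM scaling, filterByExpr, two-sided quasi-likelihood tests and Benjamini-Hochberg adjustment over all genes. DESeq2 1.42.0 was an alternative. Gate genes were left out of the tests they define. The filter kept genes at 2 CPM or more in at least 3 class sums (1.38 CPM for epithelial groups), and counts and shares of called genes leave out genes that reached it in fewer than 3 sums outside the group named (in splits, outside the group where they were higher). This rule was chosen after the data were seen. Groups were gated by 5 UMIs from 3 genes (ciliated), 3 from 2 (neuroendocrine), 5 from 2 (thyroid) and 10 UMIs (basal).

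Members, lists and groups were chosen with earlier results of these data known. Named genes are the members, the called list genes and the 3 genes most like each member. Sums of a library share a pool: their deviations from group means correlated by 0.260 to 0.927 across the within-class splits. Between the 5 classes the mean correlation was 0.171 to 0.177 by library. Cells of a library are not replicates. The fits with mural cells and of epithelial groups were added after the data were seen. The test code was also run on simulated counts, drawn independently for each sum. Those counts hold no shared library effect, so they do not bear on the choice between fits with and without the block.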

Additional observations from a re-analysis of the deposited data

Results flagged for a closer look

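The log2 ratio of the level in cells with an *Lrig1* UMI to that in cells without one was screened over the members. The screen covered each pair of epithelial cells, fibroblasts and satellite cells, and only members with opposite signs in every library are listed. These were 2 members, each in 1 pair of classes. Neither difference was tested itself, and the share of all genes with such opposite signs was not computed. The mean log2 ratio of *Igfbp5* was 0.19 in epithelial cells (0.40, 0.08 and 0.09 in libraries 1, 2 and 3) and -0.66 in fibroblasts (-0.35, -1.14 and -0.48), a difference of 0.85. Without library 1 the epithelial mean of *Igfbp5* was 0.082, and without library 2 its fibroblast mean was -0.41, as alternatives chosen after the data were seen. The epithelial difference of *Igfbp5* was not called, also with the library as a block (0.16 ± 0.07, log2, SE, adjusted p = 0.18, edgeR). The mean log2 ratio of *Igfbp7* was -0.15 in epithelial cells (-0.096, -0.18 and -0.19 by library) and 0.25 in satellite cells (0.29, 0.41 and 0.050), a difference of -0.40. In library 3 the satellite levels of *Igfbp7* were nearly equal, at 81.5 CPM with *Lrig1* and 78.7 CPM without. The fitted epithelial value of *Igfbp7* turned to 0.047 when cells above 20000 UMIs were left out. No satellite value was computed under that limit, so the directions in the 2 classes were not compared there.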

How the results depend on the processing

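The counts here are over all tested members and genes, with those left out above for reaching the filter's level in too few sums. When each library was left out in turn, members called for fibroblasts (3) ranged from 0 to 3, for endothelial cells (1) from 0 to 1, between airway and squamous basal cells (1) from 0 to 3 and in the fibroblast split (4) from 0 to 4. The basal count was 2 by DESeq2 and 5 with the replicate block, which also called 2 members in the *Lrig1* split of epithelial cells and 3 in that of fibroblasts, where 0 were called without it. Of all genes, the block called 38.8% in the basal split and 11.2% and 1.26% in the *Lrig1* splits of epithelial cells and fibroblasts. The share of all genes called by DESeq2 in the basal split is not given here. Gene counts are given below without replicates 1 and 2 for the basal and fibroblast splits, and without replicate 1 for the classes. Those of the other left-out fits are not given here, so the member counts of those fits have no share of all genes beside them. With mural cells in the fit 0 members were called for endothelial cells, where the smallest contrast of *Igfbp7* became that against mural cells, at -0.28, a contrast the fit of 5 classes lacks. The fibroblast call of *Igfbp4* was also lost with loose gates (adjusted p = 0.106) and without replicate 3 (adjusted p = 0.0917, edgeR). Of 149 alternative values of the main counts, 138 stayed within 1.5 times. These include counts of 0 that stayed 0 and falls from 3 to 2, so the tally does not measure how stable the calls were.

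Some values of members changed sign, and none with the changed sign was called. *Igfbp2* in fibroblasts against its nearest class became -0.20 with loose gates and -0.081 without limits on cells, and ranged from -0.14 to 0.79 by left-out library (0.79, called, without replicate 3). By left-out library, the basal split ranged from -0.11 to 0.027 for *Igf2r* and from -1.004 to 0.32 for *Igfbp6*, and the satellite split from -0.085 to 0.038 for *Igf1r*, -0.036 to 0.39 for *Igf2* (-0.0037 without replicate 2) and -0.56 to 0.040 for *Igfbp7*. In the *Lrig1* splits *Igfbp7* became 0.047 (epithelial) and 0.074 (fibroblasts) at 20000 UMIs or fewer, and ranged from -0.066 to 0.029 in fibroblasts by left-out library. The cause of these changes was not tested.

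Genes called in the basal split were 2397, against 6196 with the block, 1213 at 20000 UMIs or fewer, and 237 and 1392 without replicates 1 and 2. In the fibroblast split they were 381, against 668 unfiltered, 721 by DESeq2, 1287 with the block, and 3 and 39 without replicates 1 and 2. The satellite split had 0, against 12 unfiltered, 3 by DESeq2 and 84 with the block. The *Lrig1* splits had 0, against 68 and 3 by DESeq2 and 2051 and 185 with the block. Without replicate 1, 567 epithelial, 492 fibroblast, 346 satellite, 476 endothelial and 921 immune genes were called, from 1515, 1059, 745, 862 and 1697, and loose gates gave 629 for fibroblasts. With the block, airway basal, squamous basal and secretory cells had 207, 63 and 13 genes, from 92, 23 and 3. Alternatives for mural calls were not run, since mural cells entered only the added fit. Thinning to 2000 UMIs lowered shares of cells, for *Igf1* in fibroblasts from 61.9% to 43.1%.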

Other observations

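The 12846 cells without a class held every member. Their levels lay between those of the classes, with *Igf1* at 15.7 to 51.6 CPM, *Igfbp4* at 85.3 to 202 CPM and *Igfbp7* at 356 to 592 CPM, and their median of 6508.5 UMIs was below the 13193 of cells in a class.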
